A study of Mus musculus with 2 samples.

Results

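At E11.5, 236 of the 9595 cells kept from the interlimb somites (2.46%) carried at least 1 transcript of the muscle progenitor gene Pax7 and none of Myod1, Myog, Sox2, Hes5 and Pax6, and these Pax7-only cells are described here. Cells were kept when they had 200 or more but fewer than 6500 detected genes and under 15% mitochondrial transcripts, which removed 572 of 10167 barcodes. The choice asks for Pax7 together with the absence of the muscle commitment genes Myod1 and Myog and of the neural genes Sox2, Hes5 and Pax6, since Pax7 also marks the dorsal neural tube. Of the 680 kept cells with a Pax7 transcript, 388 were left out for Myod1 or Myog alone, 47 for a neural gene alone and 9 for both. The levels of these 6 genes were used in the choice and are no result. The short name Pax7-only refers to these 6 genes alone, since 194 of the cells also carried Pax3, Msc or Myf5.

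The study dissected somites lying between the limb buds from C57BL/6 wild type mouse embryos at E9.5 and E11.5, pooled 3 embryos at each stage, dissociated the tissue with trypsin, and made a single droplet (10x Chromium) library per stage. The labels name no transgene, Cre driver, treatment or sort at either stage. The E11.5 library held 136655763 unique molecular identifiers (UMIs, each standing for a captured transcript) and the E9.5 library 149368952. With a single pooled library per stage there is no biological replicate, so differences below are descriptions of these libraries, with no test and no p-value, and stage cannot be told apart from library. Levels are UMIs of a gene per 1000000 UMIs summed over a class of cells (UPM), and the 95% intervals beside them (exact Poisson for levels, exact Clopper-Pearson for shares) cover counting error only, because cells of 1 library are not replicates.

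Trunk skeletal muscle comes from the dermomyotome, the dorsal epithelium of the somite, whose progenitors express the paired box factors Pax3 and Pax7. Cells that go on to form muscle switch on Myf5 and Myod1, then Myog, and build the contractile apparatus, whereas Notch signalling through Hes and Hey repressors is known to hold progenitors back from differentiation. The Pax7 lineage later gives rise to the satellite cells of postnatal muscle. Msc, also called MyoR, encodes a basic helix-loop-helix repressor found in undifferentiated myogenic cells.

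Pax7 (ENSMUSG00000028736, chr4:139737062-139833528, minus strand, GRCm38) was detected with 1 to 11 UMIs per cell, with a median of 1. A single UMI placed 131 of the 236 cells (55.51%) just inside the choice, another 46 cells had 2 UMIs and 59 had 3 or more. Pax7 stood at 114.7 UPM in the class. The Pax7-only cells had a median of 16150.5 UMIs and 4096.5 genes, against 12393 UMIs in the rest of the library, and 25 of them (10.59%) were called doublets by Scrublet, against 4.08% of the rest. None of the 30 cell barcodes that occur in both libraries belonged to a Pax7-only cell. Just outside the choice lay 108 Pax7 cells that carried a single UMI over the 5 barred genes together. These had Pax3 at 111.4 UPM, Msc at 120.2 UPM and Myf5 at 147.7 UPM, beside 96.4, 118.5 and 141.6 UPM in the Pax7-only cells with a single Pax7 UMI. The cells on either side of the choice thus had close levels of these 3 genes.

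The label of these cells as muscle progenitors was checked with Pax3 (ENSMUSG00000004872, chr1:78101267-78197134, minus strand), Msc (ENSMUSG00000025930, chr1:14753346-14755992, minus strand) and Myf5 (ENSMUSG00000000435, chr10:107482908-107486134, minus strand), none of which entered the choice. Pax3 was detected in 58.9% of the Pax7-only cells (95% interval 52.3 to 65.2), against 10.1% of the rest of the library and 5.48% of 73 endothelial cells, defined by Cdh5 and Pecam1 transcripts and taken as a measure of free RNA. Msc was detected in 51.7% (45.1 to 58.2), against 3.19% of the rest and 1.37% of the endothelial cells. Myf5, the earliest of the myogenic regulatory factors, was detected in 61.9% (55.3 to 68.1), against 6.75% and 1.37%. The endothelial cells had the higher median depth, 18468 UMIs, so the shares of all 3 genes in the Pax7-only cells lay above the free RNA background. With each cell thinned to 5000 UMIs the shares were 33.3% for Pax3, 36.8% for Msc and 42.0% for Myf5.

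The 3 genes overlapped widely but not fully. All of them were present in 63 cells, Pax3 with Myf5 in 35, Msc with Myf5 in 28 and Pax3 with Msc in 24, while Myf5 alone was found in 20 cells, Pax3 alone in 17 and Msc alone in 7. The remaining 42 cells (17.8%) had none of the 3. These 42 cells were also the shallower ones, with a median of 12278.5 UMIs against 16847.5 in the 194 cells with a second marker.

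**Figure D1:**
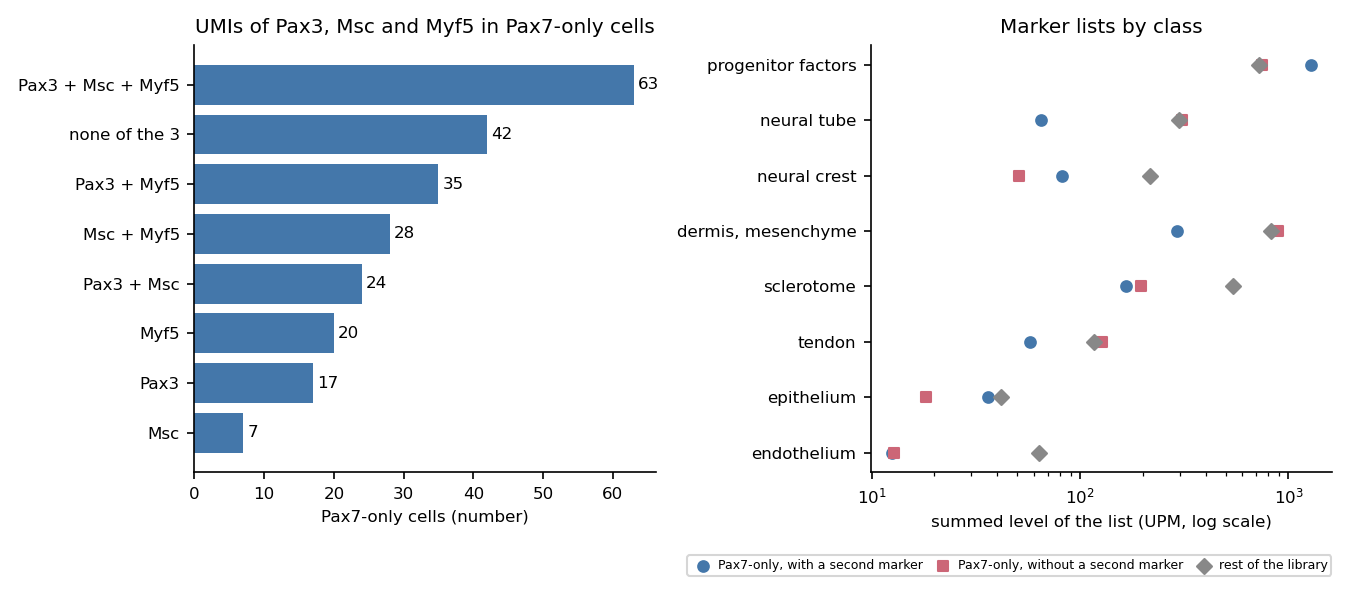
Left, number of Pax7-only cells with at least 1 UMI of each combination of Pax3, Msc and Myf5. Right, summed level (UPM, log scale) of 8 marker lists in the 194 cells with a second marker (circles), the 42 without (squares) and the rest of the library (diamonds); for the neural tube, dermis and tendon lists the squares lie at the level of the rest and the circles lie lower.

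The 42 cells without a second marker differed from the other 194 in part of the progenitor profile. The 20 progenitor factors other than Pax3 and Msc, which define the split, summed to 746.9 UPM in the 42 cells, 966.9 UPM in the 194 and 690.3 UPM in the rest of the library, and the most abundant of them in the 42, Tcf15, a factor of the epithelial somite, stood at 144.3 against 163.7 UPM. Eya1, a transcriptional co-activator of the myogenic somite, was lower in them, at 10.96 against 43.4 UPM, while En1, a homeobox factor of the somite, stood at 87.7 against 58.4 UPM. Itga4, the α4 integrin chain, stood at 1.8 UPM, a single UMI, against 121.4 UPM, and Des, the muscle intermediate filament desmin, at 7.3 against 82 UPM. Markers of the neural tube, dermis and tendon were higher in these cells. The 14 neural tube markers summed to 306.8 UPM, close to the 297.5 UPM of the rest, against 65.0 UPM with a second marker. Tubb3, neuronal β-tubulin and the most abundant of them, made up 171.6 UPM, although Sox1, Sox3, Wnt1 and Olig2 were at 0 in all 236 cells, where 3 counts would give 0.737 UPM. The 11 dermis and mesenchyme markers summed to 889.3 against 290.2 UPM, led by Crabp1, a retinoic acid binding protein, at 398.1 against 112.1 UPM. The 4 tendon markers summed to 127.8 against 57.6 UPM, nearly all of it Scx.

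The sclerotome markers summed to 195.4 UPM without and 166.5 UPM with a second marker, and endothelial markers to 12.8 and 12.5 UPM, with Cdh5 and Tie1 at 0. The epithelial markers summed to 18.3 UPM without and 36.3 UPM with a second marker. The neural crest markers summed to 51.1 and 82.3 UPM, but Erbb3, which muscle progenitors also express, made up 63.3 UPM of the latter, and the other 7 summed to 45.7 UPM without and 19.0 UPM with a second marker. The defining crest genes Sox10 and Foxd3 had a single UMI each in the 42 cells and none in the 194. The label rests on Pax3, Msc and Myf5 in the 194 cells and on Pax7 alone in the 42. The requirement of a second marker drops only cells without Pax3, Msc and Myf5 and so can raise the levels of these 3 genes by construction. Counts below are given for all 236 cells, and for the 194 cells where that moves a result, and the part of the other-tissue transcripts in each result was not tested.

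Since the number of Pax7 UMIs was used in the choice, levels along it are a description. Cells with 3 or more Pax7 UMIs had Msc at 202.8 UPM and Itga4 at 156.1 UPM, whereas cells with a single UMI had 118.5 and 79.7 UPM. Ebf2 (60.5 UPM with 1 Pax7 UMI and 10.6 UPM with 3 or more) and Hic1 (36.4 and 5.3 UPM), transcription factors of connective tissue cells, went the other way. Mki67, a marker of cycling cells, stood at 170.2 and 343.9 UPM. Median depth differed as well, 14098 against 18265 UMIs.

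Against the rest of the library, which holds all other somite cells including the Myod1 cells, 90 of 8148 genes (1.1%) were at least 2-fold higher in the Pax7-only cells and 223 (2.74%) at least 2-fold lower, among genes with a mean level of 10 UPM or more. Msc showed the largest log2 ratio of the genes named by rule, 4.33, followed by Myf5 at 3.25 and Kcne1l, a potassium channel subunit, at 2.95. Growth factor genes were among the 15 highest, namely Fgf5 (log2 ratio 2.91), Pdgfa (2.41) and Pgf (2.31). Hey1, a Notch effector, followed at 2.56, Pax3 at 2.43, Islr2 at 2.57, Npepl1 at 2.73, Nrk at 2.18, Moxd1 at 2.19, Fap at 2.13 and Eya1 at 2.12. Itm2a, a transmembrane protein known from Pax3-dependent muscle progenitors, was the most abundant of these, at 2124 UPM against 492.5 UPM. Msc, Fgf5, Islr2, Pgf and Eya1 were each under 10 UPM in the rest. They passed the level filter through the Pax7-only cells alone, so their ratios could only be high.

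Of 18 progenitor factors that passed the level filter, 9 were at least 2-fold higher than in the rest and 2 lower, beside 1.1% and 2.74% of all genes. Cdh15, the muscle cadherin (log2 ratio 1.41), Rapsn, which clusters acetylcholine receptors (1.91), and Erbb3, a neuregulin receptor (1.61), were higher too. Of 18 contractile genes, Tnnt1 alone was higher (1.16), with 657.4 UPM against 294.9 UPM, and 13 were lower. Of the 13, Myh3, Tnnc1, Acta1, Tnnc2, Myl4 and Myl1 were under 10 UPM in the Pax7-only cells. These passed the level filter through the rest alone and could only be lower, so the count is a description. The 6 lowest genes were all globins, from Hba-a1 at −8.46 and Hba-x at −8.08 to Hbb-y at −7.60, Hbb-bt, Hba-a2 and Hbb-bh1, transcripts of the primitive red blood cells that are part of the rest. Of these, Hba-a1, Hbb-bt, Hba-a2 and Hbb-bh1 were under 10 UPM in the Pax7-only cells. They passed the level filter through the rest alone, so their ratios could only be low.

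The 755 cells with at least 2 Myod1 UMIs served as the committed class, and 249 of them also carried Pax7. Of 7973 genes past the filter, 184 (2.31%) were at least 2-fold higher in the Pax7-only cells and 365 (4.58%) at least 2-fold lower. The median log2 ratio of all genes was 0.131, and relative to that median 113 genes were higher. Requiring a second marker gave 145 higher (1.83%) and 366 lower (4.61%). Depth was close, with medians of 16150.5 and 17443 UMIs. The shares of 2.31% and 4.58% are the ones to set beside each count of list members against all Myod1 cells below.

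Since 604 of the 755 Myod1 cells also expressed Myog, the factor of terminal differentiation, while 151 did not, levels are given in 3 classes, Pax7-only cells, Myod1 cells without Myog and Myod1 cells with Myog. The comparison with the 151 cells was added after the data were seen. Pax7, used only to choose the Pax7-only cells, was found in 53.0% of the 151. Against them, only 50 of 7830 genes (0.639%) were at least 2-fold higher and 7 (0.0894%) lower. Of the 184 genes higher than in all Myod1 cells, all passed the filter in this comparison and 27 were again at least 2-fold higher, and of the 365 lower ones 164 passed it and 4 were again lower. Requiring a second marker gave 50 higher (0.642%) and 8 lower (0.103%) genes.

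**Figure D2:**
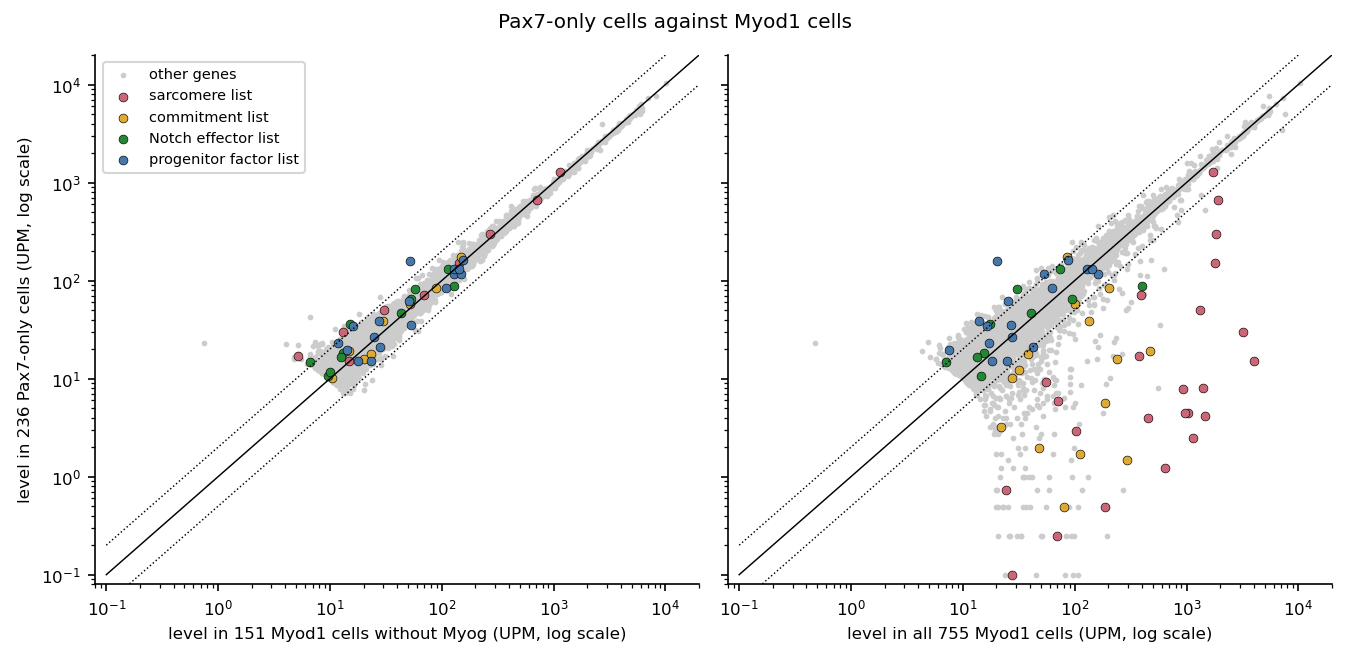
Level of each gene (UPM, log scales) in the 236 Pax7-only cells against 151 Myod1 cells without Myog (left) and all 755 Myod1 cells (right); the solid line marks equal levels, dotted lines 2-fold differences, and genes without a UMI are drawn at the foot of the axis. On the left, 2 of the 9 contractile genes (red) and none of the 8 commitment genes (yellow) past the level filter lie beyond a 2-fold line; on the right most of both lists lie far below the line.

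Among the progenitor transcription factors, Msc differed most. It stood at 157.4 UPM in the Pax7-only cells (145 to 170), 51.8 UPM in Myod1 cells without Myog and 13.3 UPM in those with Myog, and the intervals of the 3 classes did not overlap. Its log2 ratio was 2.95 (2.75 to 3.15) against all Myod1 cells and 1.60 (1.34 to 1.88) against those without Myog. Pax3 followed another course, with 116.4 UPM (106 to 127), 129.6 UPM and 36.1 UPM. Its log2 ratio of 1.13 against all Myod1 cells thus came to −0.15 (−0.36 to 0.05) against those without Myog. Eya1 stood at 39.0, 27.4 and 10.8 UPM in the 3 classes.

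Of 17 progenitor factors past the filter, 6 were at least 2-fold higher than in all Myod1 cells, and 1 was lower, with a median log2 ratio of 0.412 beside 0.131 for all genes, and 4 of the 6 stayed past 2-fold relative to that median. The other higher ones were Meox2 (1.36) and En1 (1.31), homeobox factors of the somite, and Dach1 (1.05), a transcriptional cofactor known to act with Eya1. Meox2 passed the level filter through the Pax7-only cells alone, so its ratio could only be high. Pitx3, a homeobox factor that is known to take over in differentiating muscle cells, was the lower one, at −1.03. In the cells with a second marker it stood at −0.84, within 2-fold, so that the same comparison gave 6 higher and 0 lower factors. Against the Myod1 cells without Myog, Msc and Dach1 (1.11, 0.61 to 1.64) reached a 2-fold difference, and with a second marker required Foxc1, a forkhead factor of the somite, did so too (1.09, 0.49 to 1.72).

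**Figure D3:**
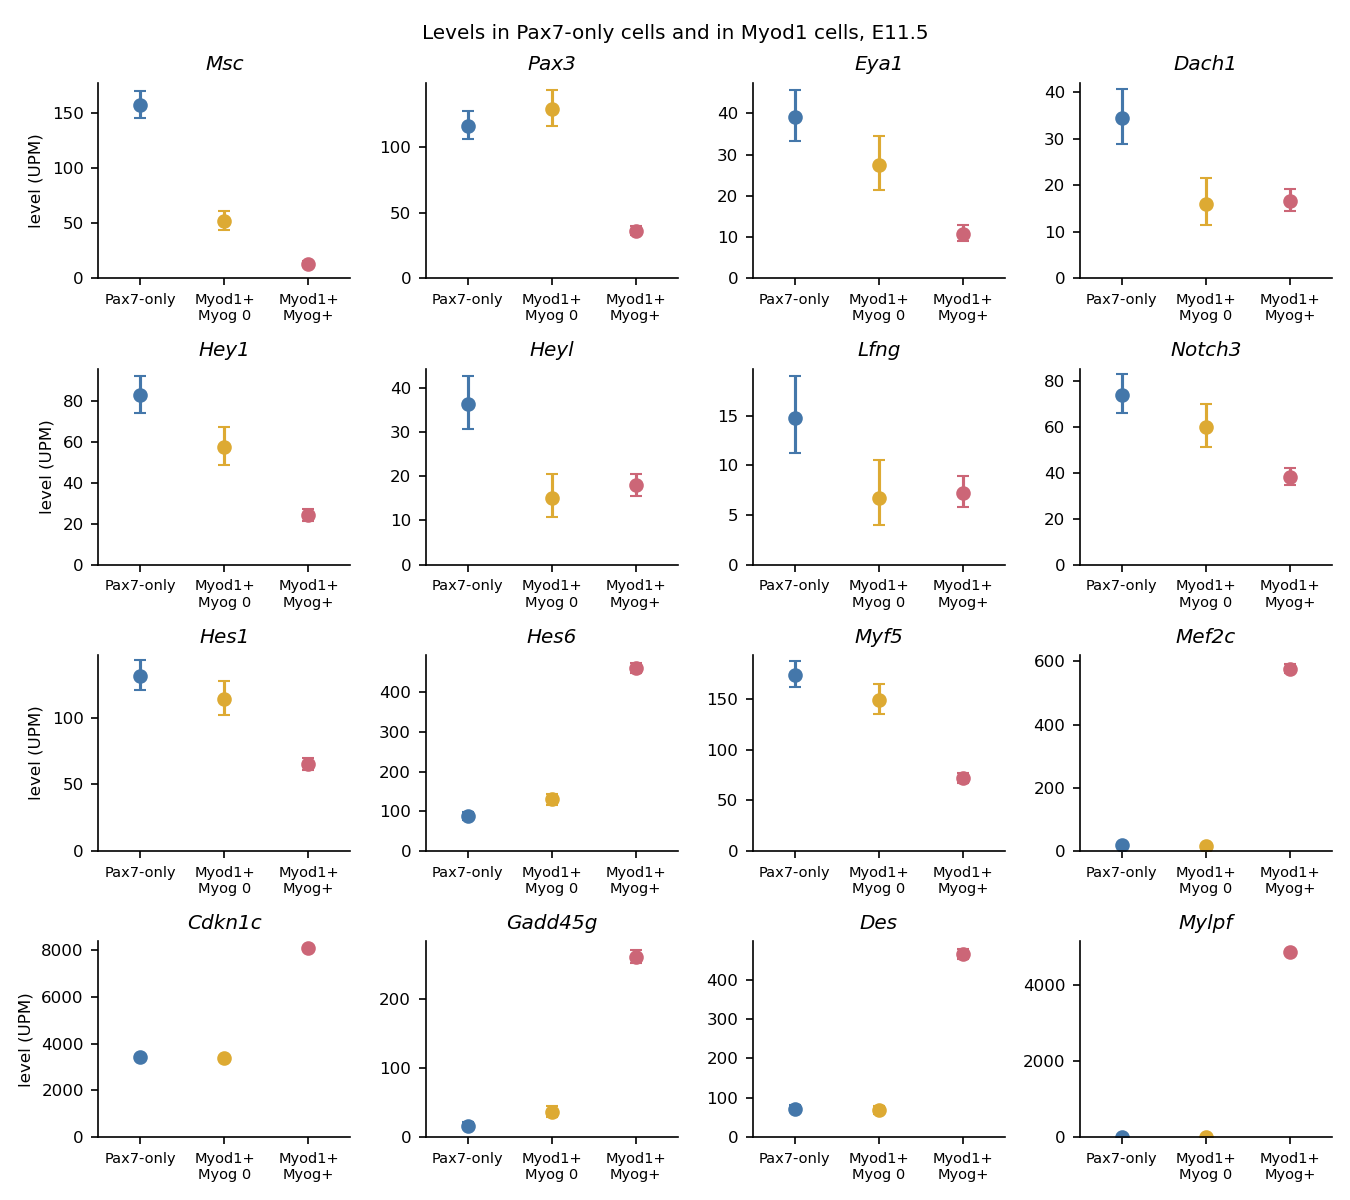
Level (UPM, linear axes from 0) of 16 genes in Pax7-only cells (236), Myod1 cells without Myog (151) and Myod1 cells with Myog (604); bars are exact 95% Poisson intervals, which cover counting error only. Msc, Heyl and Lfng are higher in the first class than in both others, while Mef2c, Des, Mylpf and Cdkn1c are similar in the first and second and higher in the third.

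Notch genes were read from ligand to target. Of the ligands, Dll1 was detected with 14 UMIs in the Pax7-only cells (3.4 UPM), against 13.7 UPM in Myod1 cells without Myog and 37.3 UPM in those with Myog, so its level was highest in the most differentiated class. Dlk1, an atypical ligand, stood at 158.9, 161.8 and 433 UPM. Notch3 stood at 73.9, 60.0 and 38.2 UPM, Notch1 at 31.2, 17.4 and 24.7 UPM and Notch2 at 73.7, 65.2 and 61.8 UPM, and none of these 3 receptors reached a 2-fold ratio against all Myod1 cells. Against the rest of the library Notch3 was higher, at 1.20 (1.03 to 1.37), while Notch1 at −0.02 and Notch2 at 0.06 stayed within 2-fold, and Dlk1 was lower.

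Of 10 Notch targets and pathway components past the filter, 3 were at least 2-fold higher in the Pax7-only cells than in all Myod1 cells and 1 was lower, and relative to the median ratio of all genes Hey1 alone stayed past 2-fold (1.32), with Heyl at 0.93 and Lfng at 0.92. Hey1, a repressor induced by Notch, stood at 83.0 UPM, against 57.4 UPM without Myog and 24.2 UPM with Myog, a log2 ratio of 1.46 (1.25 to 1.66) against all Myod1 cells. Its relative Heyl stood at 36.3 UPM against 15.2 and 17.9 UPM, and Lfng, the glycosyltransferase that modifies Notch receptors, at 14.7 against 6.7 and 7.2 UPM. Heyl and Lfng also kept a 2-fold ratio against the Myod1 cells without Myog, at 1.26 (0.75 to 1.80) and 1.14 (0.36 to 1.99), whereas Hey1 did not, at 0.53 (0.25 to 0.82). Lfng passed the level filter in these comparisons through its level in the Pax7-only cells alone, so its ratio could only be a high one and is no more than a description. In the cells with a second marker, the ratios of Hey1, Heyl and Lfng against all Myod1 cells were 1.62, 1.18 and 1.18. Heyl had a single UMI over the 73 endothelial cells, while Hey1, which endothelium expresses, was found in 38.4% of them. Hes6, which is known to oppose Hes1 and to promote differentiation, went the other way, at 87.4, 129.9 and 462 UPM. Hes1 stood at 131.6, 114.4 and 65.1 UPM, a log2 ratio of 0.83 against all Myod1 cells.

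The promoter of Lfng (GENCODE chr5:140607320-140615545, plus strand) is shown because it is the 1 gene of the 3 higher Notch components with an entry in the RefSeq promoter table (GRCm38.p6, 250 bases before to 50 after the start of each gene). It holds the core of the RBPJ motif, TGGGAA, searched on both strands, at 2 places, and in the windows below the capitals mark the motif as read on the strand of the gene, the first in its reverse complement. They start 135 and 108 bases before the RefSeq start of the gene (position 140607341) and lie outside the GENCODE gene, which begins slightly further upstream. The same letters occur in 25.561% of all 32851 promoters and in 4 of the 10 Notch targets and components that have an entry (Hey2, Lfng, Maml2 and Rbpj), so a match is a description and not a binding site.
Lfng, chr5:140607194-140607223: ccagctgggtggTTCCCAgccccttgtccg
Lfng, chr5:140607221-140607250: ccgtatcccacgTGGGAAggagagatctcc

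The 17 commitment genes summed to 443.2 UPM in the Pax7-only cells, 409.4 UPM in Myod1 cells without Myog, 2086.6 UPM in all Myod1 cells and 354.9 UPM in the rest of the library. Myf5 stood at 173.9 UPM (161 to 187), against 149.2 UPM in Myod1 cells without Myog and 72.1 UPM in those with Myog, and was the only 1 of 15 commitment genes that was at least 2-fold higher than in all Myod1 cells (log2 ratio 1.01), while 13 were lower. Relative to the median of all genes its ratio was 0.88, under 2-fold. Mef2c, which activates contractile genes together with Myog, stood at 18.9, 14.8 and 577.6 UPM, and Cdh15 at 83.7, 88.8 and 230.5 UPM. The fusogens that drive myoblast fusion, Mymk (in the files Tmem8c) and Mymx (Gm7325), had 23 and 6 UMIs in the 236 cells. Tmem8c stood at 5.6, 8.9 and 227.5 UPM, and Gm7325 at 1.5, 2.2 and 358.0 UPM. Both passed the level filter against all Myod1 cells through those cells alone, so their ratios there could only be low. They are among the 13 lower genes, so that count and the median of the list are descriptions. The median log2 ratio of the 15 genes was −2.78 against all Myod1 cells, and none of 8 that passed the filter reached a 2-fold ratio in either direction against those without Myog.

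Contractile genes were compared in the same way. Of 24 sarcomere and cytoskeleton genes, 23 were at least 2-fold lower than in all Myod1 cells, beside 4.58% of all genes. None was higher, the median log2 ratio was −5.99, and Tpm1 alone stayed within 2-fold (−0.41). Several members, such as Myh3 (1.2 UPM) and Acta1 (4.2 UPM), were under 10 UPM in the Pax7-only cells. They passed the level filter through the Myod1 cells alone and could only be lower, so the count and the median are descriptions. The list summed to 2639.0 UPM in the Pax7-only cells, 2451.9 UPM in Myod1 cells without Myog and 25061.5 UPM in all Myod1 cells. The 12 lowest genes by rule were mostly from this list. They were Tnnc1 (−8.87), Myh3 (−9.03), Acta1 (−8.47), Mylpf (−8.05), Tnnc2 (−7.87), Mybph (−9.62), Myl4 (−7.79), Sln (−8.52), Myl1 (−7.43) and Il17b (−8.62), with Casq2 at 0 UMIs and a bound of −7.19, and RP23-455C13.7 at 0 UMIs as well. Of the 12, Mylpf alone was above 10 UPM in the Pax7-only cells, at 15.0 UPM. The others passed the level filter through the Myod1 cells alone, so their ratios could only be low. Myh3, the embryonic myosin heavy chain, had 5 UMIs in the Pax7-only cells. Mylpf, the fast myosin light chain, had 61 UMIs in 20.8% of them, beside 15.1% of endothelial cells with a UMI. The part of free RNA in its level was not tested.

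Some contractile transcripts stood at higher levels than Mylpf in the Pax7-only cells. The share of endothelial cells with a UMI is given for Tnnt1 and not for the others. Tnnt1, slow troponin T, stood at 657.4 UPM in the Pax7-only cells, 717.1 UPM in Myod1 cells without Myog and 2157.5 UPM in those with Myog, and was detected in 86.4% of the Pax7-only cells against 27.4% of endothelial cells. Des stood at 71.9, 69.2 and 464.5 UPM and Acta2, smooth muscle α-actin, at 150.3, 142.2 and 2160.5 UPM. Against the Myod1 cells without Myog, 2 of 9 contractile genes were higher, Neb at 1.73 (0.89 to 2.67) and Actc1 at 1.21 (0.66 to 1.80), on 70 and 122 UMIs in the Pax7-only cells. Neb, at 17.2 against 5.2 UPM, passed the level filter through the Pax7-only cells alone, so its ratio could only be a high one.

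Promoter windows of 2 contractile genes are shown because these genes span the pattern, Acta1 being far lower than in all Myod1 cells and Des less so. The capitals mark the E-box CAGCTG, the palindrome bound by myogenic basic helix-loop-helix factors. It occurs in 8 of the 21 contractile genes with a promoter entry (Acta1, Acta2, Des, Myl1, Mylpf, Tnni1, Tnnt2 and Tpm2) and in 16.301% of all promoters in the table. The E-box starts 221 bases before the RefSeq start of Acta1 (position 123894775, minus strand) and 36 before that of Des (position 75360292, plus strand), and both windows lie outside the genes as GENCODE has them (GRCm38).
Acta1, chr8:123894979-123895008: gggaggggcagaCAGCTGgggatactctcc
Des, chr1:75360244-75360273: agagggatcctgCAGCTGtcaggggagggg

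Besides Msc, 11 genes made up the highest 12 by rule against all Myod1 cells. Secreted and membrane proteins among them were Fxyd7, a regulator of the sodium pump (log2 ratio 1.80), the hormone stanniocalcin Stc1 (1.67), the matrix metalloproteinase Mmp2 (1.61), the pentraxin Ptx3 (1.61), the Hedgehog co-receptor Boc (1.61), the sphingosine phosphate receptor S1pr3 (1.60) and Kcne1l (1.40). The others were Moxd1 (1.61), the kinase Plk2 (1.53) and the transcription factors Ebf2 (1.76) and Osr1 (1.65). Ebf2 and Osr1 are also in the dermis and mesenchyme list, and with a second marker required their ratios were 1.31 and 1.10. Against the Myod1 cells without Myog their ratios in the cells with a second marker were 0.87 and 0.44. Tubb3 had a ratio of 2.69 against the Myod1 cells without Myog, and of 1.79 for the 194 cells with a second marker. The most abundant neural tube marker in the Myod1 cells without Myog, Dcx, was at 8.5 UPM. Tubb3 thus passed the level filter through the Pax7-only cells alone, and its ratios could only be high. All 14 neural tube markers together summed to 97.5 UPM in the Pax7-only cells, 32.2 UPM in the Myod1 cells without Myog and 119.4 UPM in the endothelial cells, where Stmn2 made up 111.8 UPM. Red blood cell transcripts differed the other way, with 7 markers summing to 52.8 UPM in the Pax7-only cells, 57.0 UPM in the Myod1 cells without Myog, 53.5 UPM in the endothelial cells and 931.3 UPM in all Myod1 cells, led by Hbb-y. The epithelial markers summed to 33.9 UPM in the Pax7-only cells and 8.8 UPM in all Myod1 cells. They were led by Epcam, an epithelial adhesion molecule, at a ratio of 2.14 (2.22 with a second marker). Epcam, at 18.9 against 4.3 UPM, passed the level filter through the Pax7-only cells alone, so its ratio could only be high. The tendon factor Scx had a ratio of 1.28 (0.996, under 2-fold, with a second marker), and the sclerotome factors Pax1 and Sox9 had 1.56 and 1.23 (1.34 and 1.14). The part of these transcripts was not tested.

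The 7 genes at least 2-fold lower than in the Myod1 cells without Myog, named after their values were seen, were Ppp1r14c (−1.39), Tuba4a (−1.31), Ccdc141 (−1.23), Gadd45g (−1.11), Nomo1 (−1.09), Gria2 (−1.07) and Arhgef15 (−1.02). They rest on few counts, such as 31 UMIs of Ppp1r14c in the Pax7-only cells and 54 in the others. Ppp1r14c passed the level filter through the Myod1 cells without Myog alone, so its ratio could only be low. Gadd45g, a growth arrest gene, stood at 16.9 UPM in the Pax7-only cells, 36.7 UPM without Myog and 261.3 UPM with Myog.

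None of 20 S phase and 20 G2 and M phase genes reached a 2-fold ratio against all Myod1 cells, and their median log2 ratios were 0.406 and 0.572 beside 0.131 for all genes. Mki67 stood at 228.6 UPM in the Pax7-only cells, 154.7 UPM in Myod1 cells without Myog and 113.4 UPM in those with Myog, and Top2a, the topoisomerase of dividing cells, at 461.4, 381.7 and 279.4 UPM. The S phase genes summed to 2216.7 UPM in the Pax7-only cells, 2596.6 UPM in the Myod1 cells without Myog and 1716.1 UPM in all Myod1 cells, so the Pax7-only cells lay between them. Against the Myod1 cells without Myog the median of the S phase list was −0.208 and that of the G2 and M list 0.264. Of 10 genes of cycle exit, 7 were at least 2-fold lower than in all Myod1 cells, beside 4.58% of all genes. One of them, Cdkn1a, passed the level filter through the Myod1 cells alone and could only be lower. Cdkn1a, which encodes the inhibitor p21, had 8.1, 4.8 and 686.6 UPM, and Cdkn1c, which encodes p57, had 3446, 3365 and 8081 UPM, so both were highest in the cells with Myog.

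Receptors and feedback genes of growth factor signalling were partly higher than in all Myod1 cells. Over all genes, 2.31% were at least 2-fold higher in that comparison and 4.58% lower. Of 19 receptors past the filter, 4 were at least 2-fold higher than in all Myod1 cells and none lower, with Pdgfrb at 1.78 and Pdgfra at 1.40, receptors that connective tissue cells also express, and Fzd1, a Wnt receptor, and Epha4, an ephrin receptor. With a second marker required, Pdgfrb and Met, the receptor of migrating limb muscle progenitors, were the ones past 2-fold. Of 7 genes of Fgf feedback and response, Il17rd (1.36), Dusp6 and Etv4 were higher and none lower, and Il17rd and Etv4 stayed past 2-fold with a second marker required. Of 10 genes known from satellite cells, Vcam1 (1.69), a cell adhesion molecule, and Col5a1, a collagen chain, were higher, also with a second marker required, and Ndn, necdin, was then lower (−1.01). Of 28 matrix and adhesion genes, 9 were higher, such as the α9 integrin Itga9 (1.34), and 2 lower, among them Npnt, nephronectin (−3.66). Of 27 that passed with a second marker required, 5 were higher. Relative to the median ratio of all genes, 2 of the 4 receptors, 1 of the 3 Fgf genes, 1 of the 2 satellite cell genes and 6 of the 9 matrix genes stayed past 2-fold. Against the Myod1 cells without Myog, 1 of 19 receptors (Fzd1) and 1 of 26 matrix genes (Lama4) were higher and none lower. None of 8 Fgf genes and 9 satellite cell genes reached 2-fold there, beside 0.639% of all genes higher and 0.0894% lower.

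Against the rest of the library, none of 19 receptors, 8 Fgf feedback genes and 10 satellite cell genes past the filter was at least 2-fold higher. The shares over all genes in this comparison were 1.1% higher and 2.74% lower. The receptors Fgfr2 (−1.77) and Pdgfra (−1.45) were lower, 16 of the 19 lay below 0, and their median log2 ratio was −0.286. Requiring a second marker put Met past 2-fold, while Fgfr2, Pdgfra and Epha4 were lower. The Fgf feedback and satellite cell genes had medians of −0.129 and −0.297 and no lower member, except that Vcam1 came to −1.43 in the cells with a second marker. Of 30 matrix and adhesion genes past the filter, 5 were higher than in the rest, Itga4, Lama2, Col4a1, Itga9 (1.35) and Col4a2. Another 6 were lower, Lum (−2.02), Dcn (−1.74), Itga6 (−1.60), Col5a2 (−1.50), Bgn (−1.39) and Nid1 (−1.16), mostly collagens, proteoglycans and other matrix proteins, and the median of the 30 was −0.199. With the 194 cells alone, 5 were higher and 7 lower.

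The Pax7-only cells were then split by Myf5, into 146 cells with and 90 without a UMI, with medians of 17210.5 and 15215.5 UMIs. Of 7990 genes, 63 (0.788%) were at least 2-fold higher in the cells with Myf5 and 236 (2.95%) lower. These counts came to 320 and 599 with cells thinned to 5000 UMIs, and to 241 and 332 with at least 2 Pax7 UMIs. Requiring a second marker removes cells from the Myf5-negative side alone, leaving 48 that were chosen for Pax3 or Msc, and 81 genes (1.02%) were then higher and 227 (2.85%) lower. Of the genes named by rule, Vgll2, a cofactor of muscle gene transcription, had the highest ratio, 3.66, followed by Des (2.55). Cdh15 (2.05), Acta2 (2.04), Fitm1, a protein of lipid droplet formation (1.88), and Capn6, an unconventional calpain (1.68), came next. Vgll2, at 6.5 UPM without Myf5, passed the level filter through the cells with Myf5 alone, so its ratio could only be high. In the cells with a second marker these ratios were 3.11 for Vgll2, 2.09 for Des, 1.88 for Cdh15, 2.10 for Acta2, 1.48 for Fitm1 and 1.19 for Capn6.

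**Figure D4:**
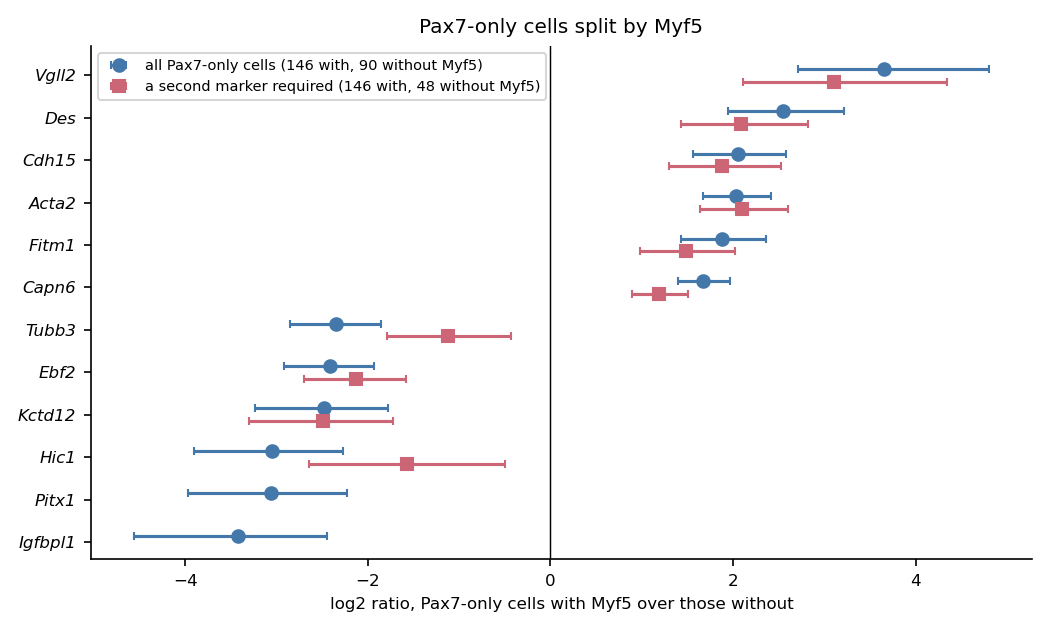
Log2 ratio of the level in Pax7-only cells with Myf5 over those without, for the 6 highest and 6 lowest genes named by rule, with 95% intervals that cover counting error only; circles are all 236 cells and squares the cells with a second marker. Pitx1 and Igfbpl1 have no square because they fell under the level filter, and Tubb3 and Hic1 lie nearer to 0 in the squares.

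Of 9 contractile genes past the filter in this split, 4 were higher with Myf5, Des, Acta2, Ttn (1.37) and Tnnt1 (1.02), and none lower. The shares over all genes in this split were 0.788% higher and 2.95% lower. With a second marker required Tnnt1 came to 0.81 and the other 3 stayed past 2-fold. The Notch effectors Heyl (1.43, 0.79 to 2.12) and Lfng (1.21, 0.25 to 2.31) were higher as well, and Heyl stayed at 1.39 with a second marker required, whereas Lfng came to 0.96 (−0.14 to 2.24). Lfng, at 18.3 against 7.9 UPM, passed the level filter in this split through the cells with Myf5 alone, so its ratio could only be a high one. Pitx3 was higher (2.78), while the somite factors Meox2 (−1.97) and Dmrt2 (−1.76) were lower, and stood at −1.87 and −1.66 with a second marker required. Meox2 passed the level filter through the cells without Myf5 alone, so its ratios could only be low. Msc (0.76), Hey1 (0.87) and Pax3 (0.30, 0.01 to 0.59) stayed within 2-fold.

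Of the genes named by rule, the 6 lowest in the split were Igfbpl1 (−3.43), Pitx1 (−3.06), Hic1 (−3.04), Kctd12 (−2.48), Ebf2 (−2.41) and Tubb3 (−2.34). Elavl3, of the neural tube list, was not named by that rule and stood at −3.565. It passed the level filter through the cells without Myf5 alone, so its ratio could only be low. Igfbpl1, Pitx1, Hic1 and Kctd12 were under 10 UPM in the cells with Myf5 (3.7, 5.6, 6.3 and 8.6 UPM). They passed the level filter through the cells without Myf5 alone, so their ratios could only be low. All 5 dermis and mesenchyme markers past the filter and Pdgfra (−1.97) were lower with Myf5. Of 28 matrix genes past the filter, 7 were lower and 1 was higher, beside 2.95% and 0.788% of all genes. These directions rest in part on the cells with a single Pax7 UMI, since among those with at least 2 Pax7 UMIs Crabp1, one of the 5, stood at 0.24 and Tubb3 at 1.51. With a second marker required, Hic1 was at −1.57, Tubb3 at −1.12, Pdgfra at −1.27 and Crabp1 at −0.94, nearer to 0, so that 4 of the 5 dermis and mesenchyme markers were lower. Ebf2 at −2.13 and Kctd12 at −2.49 stayed well past 2-fold. The part of cells of other tissues in this was not tested.

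Split by Pax3, 139 cells with and 97 without a UMI, the cells showed 58 of 7927 genes (0.732%) at least 2-fold higher with Pax3 and 61 (0.77%) lower. Depth differed too, with medians of 17762 and 14209 UMIs. Dach1 (1.81), Mef2c (1.72), Met (1.64) and Itga4 (1.52) were higher with Pax3. Hic1 (−2.01), Gadd45g (−1.86), Tubb3 (−1.41), Dcn, the proteoglycan decorin (−1.31), and Pdgfra (−1.09) were lower. Mef2c passed the level filter through the cells with Pax3 alone, so its ratio could only be high. Gadd45g passed it through the cells without Pax3 alone, so its ratio could only be low. Msc at 0.64 and Myf5 at 0.14 (−0.09 to 0.37) stayed within 2-fold. Requiring a second marker removes cells from the Pax3-negative side alone and leaves 55 there that were chosen for Msc or Myf5, which the cells with Pax3 were not, so that version compares other cells and is given as values only. In it Tubb3 stood at 1.28, Pdgfra at 0.43, Itga4 at 0.86, Dach1 at 2.20, Met at 1.12 and Mef2c at 1.04, and the Fgf response genes Dusp6 and Etv4 at 2.94 and 2.01. Markers of other tissues went with Pax3 there as well, since 3 of 5 dermis and mesenchyme markers past the filter, Osr1 (2.54), Crabp1 (1.56) and Prrx1 (1.70), were higher, with a median of 1.562 over the 5, and so was the neural marker Stmn2 (2.04). Their part in these ratios was not tested. In the same version 136 genes (1.74%) were higher and 56 (0.717%) lower.

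The same choice at E9.5 gave 104 of 9851 kept cells (1.056%), with a median of 18613.5 UMIs. Pax3 was detected in 97.1% of these, so nearly all had a second marker. Of 7740 genes, 675 (8.72%) were at least 2-fold higher at E11.5 and 294 (3.8%) lower, and with a second marker required at both stages 643 (8.33%) and 306 (3.96%). Msc had 641 UMIs at E11.5 and 0 at E9.5, where 3 counts over the class set the floor, so its log2 ratio was at least 6.92. Bounds for Postn, Hspb1 and Moxd1, also at 0 at E9.5, were 6.12, 5.81 and 5.70. Nfib, of the nuclear factor I family, was at 8.61 (6.13 to 13.92) on a single UMI at E9.5, Nrk at 7.83 (6.28 to 10.11) on 3, Tnnt1 at 7.76 (6.71 to 9.07) on 7 and Kcne1l at 6.84 (5.61 to 8.46) on 5. All of these passed the level filter through E11.5 alone, and such counts leave the size of the ratios poorly determined.

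**Figure D5:**
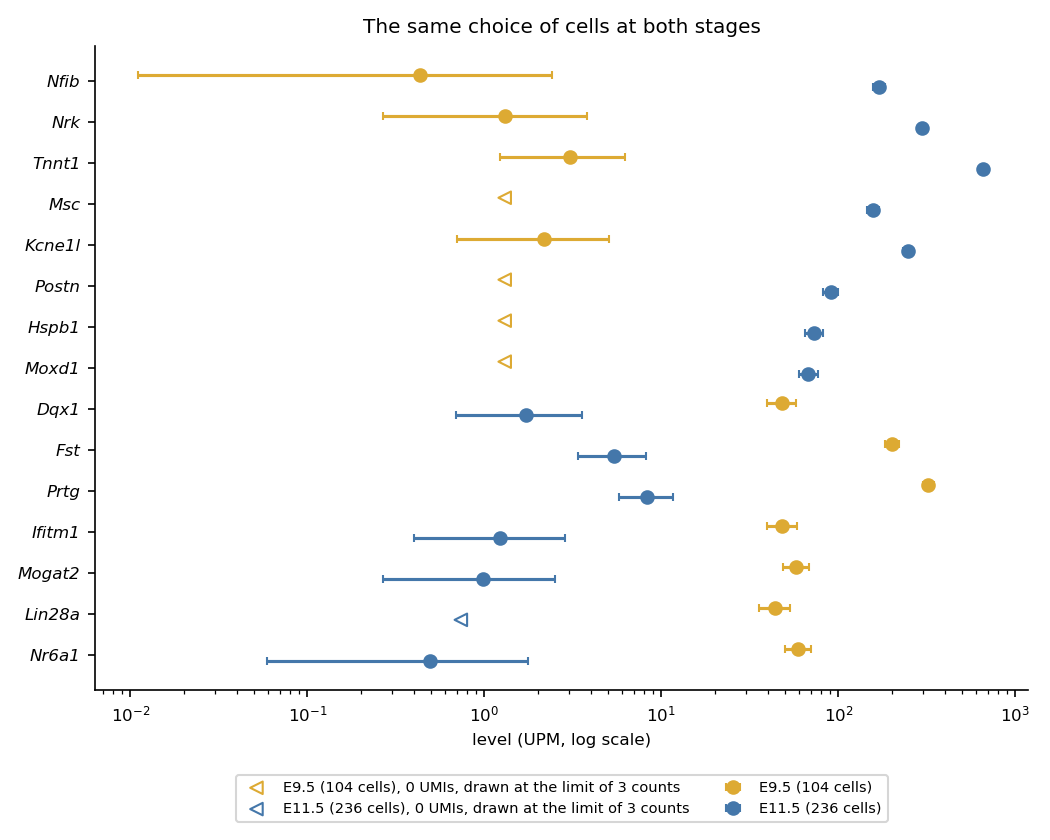
Level (UPM, log scale) of the 8 highest and 7 of the 8 lowest genes named by rule in the cells chosen in the same way at E9.5 (104 cells, yellow) and E11.5 (236 cells, blue), with exact 95% Poisson intervals; open triangles are classes without a UMI, drawn at the limit of 3 counts. The genes were picked by how far their interval lay from a ratio of 1, so the separation of the intervals follows from the choice, and each stage is a single library.

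Over all genes, 8.72% were at least 2-fold higher at E11.5 than at E9.5 and 3.8% lower. The progenitor factors differed in both directions between the stages. Of 18 past the filter, 4 were higher at E11.5, among them En1 (7.17, on a single UMI at E9.5), Msc and Pitx3 (5.59), and 7 were lower, among them Meox1 (84.2 against 531.2 UPM), Meox2 (19.4 against 108.6 UPM), Tcf15 (161.1 against 439.6 UPM) and Pax3 (116.4 against 283.6 UPM), which are factors of the early epithelial somite. Among the higher ones, En1 and Pitx3, like Msc, passed the level filter through E11.5 alone, so their ratios could only be high. The 24 contractile genes together summed to 2639.0 UPM at E11.5 and 309.3 UPM at E9.5. Of them 7 passed the level filter, most through their E11.5 level alone, and examples are Tpm1 (1289.2 against 216.8 UPM), Tpm2 (302.0 against 46.0 UPM), Acta2 (150.3 against 3.9 UPM) and Des (71.9 against 10.0 UPM). The 17 commitment genes summed to 443.2 against 111.6 UPM, with Myf5 at 173.9 against 33.9 UPM. Cdkn1c stood at 3446 against 205.5 UPM.

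Among the Notch genes, Hey1 stood at 83.0 UPM at E11.5 against 9.1 UPM at E9.5, Heyl at 36.3 against 3.5 UPM, Hes1 at 131.6 against 64.3 UPM and Notch3 at 73.9 against 12.2 UPM. The 15 Notch targets and components summed to 535.8 against 278.9 UPM. Of 9 past the filter, 4 were at least 2-fold higher and none was lower, beside 8.72% and 3.8% of all genes. Among these 9, 2 lay below 0, and the median log2 ratio was 0.351, beside 0.036 for all genes. Hey1 and Heyl passed the filter through their E11.5 level alone. Itga4 (105.3 against 1.7 UPM) and Erbb3 (55.5 against 1.3 UPM) were also higher. These 2 genes too passed the filter through E11.5 alone, so their ratios could only be high. The 34 matrix and adhesion genes summed to 2376.8 against 922.6 UPM. Markers of other tissues also differed between the stages. The tendon markers summed to 67.0 UPM at E11.5 and 1.7 UPM at E9.5, the neural tube markers to 97.5 and 14.8 UPM, the dermis and mesenchyme markers to 370.8 and 189.4 UPM, and the endothelial markers to 12.5 and 87.3 UPM, and the part of these transcripts was not tested. Genes lower at E11.5 included Lin28a, an RNA-binding protein of early embryonic cells, with 0 UMIs at E11.5 and a bound of −5.90. Nr6a1, a nuclear receptor of the early embryo (−6.92), Prtg (−5.27), Mogat2 (−5.88), Ifitm1 (−5.30), Dqx1 (−4.80) and Fst, follistatin (−5.22), were lower too. All of these were under 10 UPM at E11.5. They passed the level filter through E9.5 alone, so their ratios could only be low.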

How the data were processed

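Dissociated interlimb somite cells of wild type mouse embryos were profiled in a single library per stage (E9.5 and E11.5). The authors deposited raw UMI counts per gene and cell, made with Cell Ranger 3.0.1 on mm10 per the submitters' processing notes, for 27998 genes. The E9.5 and E11.5 files held 10121 and 10167 barcodes; after the limits on genes (200 to below 6500) and mitochondrial share (below 15%) 9851 and 9595 cells remained, with medians of 12462 and 12479 UMIs. The choice of the Pax7-only cells and all gene lists were made with earlier results of these data known.

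For each class, the counts of all its cells were added up per gene and divided by the total of the class, per 1000000 UMIs. Ratios were computed for genes with a mean of both levels of at least 10 UPM. A gene without a UMI was set to 3 counts over the class, which gives a bound. Intervals are exact 95% Poisson, binomial (Clopper-Pearson) and conditional binomial intervals. Genes named outside the lists were those with the interval bound farthest from 0 at a mean of at least 20 UPM, 12 highest and 12 lowest against Myod1 cells, 15 and 6 against the rest, 6 and 6 for Myf5, 8 and 8 between stages. The choice genes and the gene that splits the classes were left out of that ranking, and a few genes of the lists and the ranking are not reported here. No test was possible with a single library per stage. Doublets were called with Scrublet in scanpy 1.11.5 (468 cells, 4.6%, at E11.5 and 628, 6.2%, at E9.5) and left out as an alternative only. On simulated counts for the comparison with Myod1 cells (7920 genes, 200 of them changed) ratios were recovered with a median absolute error of 0.0803 log2 units and 95.38% of intervals covered the true value. Python 3.11.15, numpy 2.4.6, scipy 1.17.1, pandas 2.3.3 and matplotlib 3.10.9 were used. Gene positions are from GENCODE M21 (GRCm38) and promoters from RefSeq.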

Additional observations from a re-analysis of the deposited data

How the results depend on the processing

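Each comparison was repeated with centred ratios, equal weight per cell, a filter of 2 UPM, Scrublet calls left out, cells thinned to 5000 UMIs, at least 2 Pax7 UMIs, further neural genes at 0 and at least 1000 genes per cell. The requirement of a second marker and the comparison with Myod1 cells without Myog as a class of its own were chosen after seeing the data. No paired analysis was possible because each stage is 1 library, and for the same reason no replicate could be left out. In all, 10054 values moved by less than their own spread or stayed on their side of the threshold, 1524 moved and 24 changed sign; the cause was not tested unless the setting itself gives it (fewer cells or UMIs, or more genes let through the filter).

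Genes higher against Myod1 cells numbered 184 as reported, 113 centred, 526 at 2 UPM (708 lower), 354 thinned, 72 with Myod1 cells from 1 UMI and 333 from 4 UMIs. With Myog at 0 in the Myod1 cells, 50 were higher and 7 lower, and these log2 ratios changed sign: Acta2 0.0802, Actc1 1.21, Btg1 0.34, Cdkn1c 0.0343, Des 0.0556, Gadd45a 0.0452, Hbb-y 0.0656, Mef2a 0.37, Mef2c 0.35, Mylpf 0.0166, Neb 1.73, Pax3 −0.15, Tpm2 0.15 and Ttn 0.72. Against the Myod1 cells without Myog, the counts were 352 higher and 136 lower at 2 UPM, 267 and 113 thinned, and 16 lower with at least 2 Pax7 UMIs. Against the rest they were 177 and 812 at 2 UPM. In the Myf5 split they were 330 and 834 at 2 UPM, 320 and 599 thinned, and 241 higher with at least 2 Pax7 UMIs, where Crabp1 0.24, Dlk1 0.10, Stmn2 1.59, Tubb3 1.51 and Vcam1 0.51 changed sign. In the Pax3 split they were 413 and 450 at 2 UPM, 316 and 376 thinned, 147 lower with equal weight per cell, 136 higher with a second marker (Pdgfra 0.43 and Tubb3 1.28 changed sign), and 260 and 151 with at least 2 Pax7 UMIs (Pdgfra 0.92 and Tubb3 3.38 changed sign). Between stages they were 1654 and 586 at 2 UPM, 466 lower thinned and 463 lower with at least 2 Pax7 UMIs, where Prrx1 came to −0.23. The shares with a UMI came to 33.3% for Pax3, 36.8% for Msc and 42.0% for Myf5 when thinned, and to 44.1%, 42.8% and 51.7% with 2 UMIs asked for. In the splits of the 236 cells, genes near 10 UPM rest on few UMIs.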

Other observations

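Several further gene lists held few differences of 2-fold or more. Over all genes, 2.31% were higher and 4.58% lower than in all Myod1 cells, and 1.1% higher and 2.74% lower than in the rest. Of 10 genes of the Id, Twist, Snai and Zeb families and Hic1 that passed the filter against all Myod1 cells, Hic1 was higher and Snai1 and Zeb1, regulators of mesenchymal transition, were lower, with a median log2 ratio of 0.482. Requiring a second marker left 9 of them past the filter, with none at least 2-fold higher and the same 2 lower. Without that requirement, Hic1 passed the filter against all Myod1 cells through the Pax7-only cells alone, so its ratio there could only be high. None of the 3 D-type cyclins reached a 2-fold ratio, with a median of 0.559. The 8 sclerotome markers summed to 170.4 UPM in the Pax7-only cells, 89.7 UPM in all Myod1 cells, 118.5 UPM in those without Myog and 543.2 UPM in the rest of the library. Against the rest, the cyclins had no member past 2-fold in either direction. In the Id list none was higher there, Twist2 (−1.96) and Hic1 (−1.33) were lower, 8 of 10 lay below 0 and the median was −0.47.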
